A study of Mus musculus with 46 samples.

Results

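Heat shock proteins are molecular chaperones that bind unfolded or partly folded proteins and help them reach or keep their native shape. The genes described here are 10 of the best-known mouse heat shock protein genes, namely Hspa8, Hspa1a, Hspa1b, Hsp90aa1, Hsp90ab1, Hsph1, Dnajb1, Hspb1, Hspd1 and Hspe1. They were chosen by symbol, and all 10 were found among the 9857 gene symbols that stood on a single entry in both the DMSO and the torin 1 count tables. The question asked of them was how their transcripts and their ribosome footprints changed with loss of Ctu1 and with torin 1, an inhibitor of the mTOR kinase.

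The cells were EPP2, a murine pancreatic cancer line. All were derived from 1 single-cell clone with doxycycline-inducible Cas9, so line and clone cannot be told apart from general properties of pancreatic cancer cells. In Ctu1 iKO cells, guide RNAs against Ctu1 were present and Cas9 was switched on by 300 ng/ml doxycycline given 4 days earlier, and control cells are those labelled wild type. As controls for CRISPR experiments the methods list guide RNAs against non-coding chromosome regions, or cells not given doxycycline. The sources used here do not say which of these applied to the control cells, and so which guide RNAs they carried or whether they received doxycycline. Each genotype was treated for 2 h with DMSO or with 300 nM torin 1. This gave 4 groups, with 6 control replicates in DMSO, 6 control replicates in torin 1, 5 Ctu1 iKO replicates in DMSO and 6 Ctu1 iKO replicates in torin 1. For each of these 23, ribosome footprints (the mRNA fragments that ribosomes shield from RNase) and poly(A) RNA were sequenced, which gave 46 libraries. The labels do not say whether replicates were separate cultures. The methods describe 2 independent replicates on consecutive days and the figure legends up to 6, so p-values measure the spread between these libraries, which may in part be technical.

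In the cytosol, HSP70 proteins (Hspa8, Hspa1a, Hspa1b) hold exposed hydrophobic stretches of a client in cycles of ATP hydrolysis. HSP40 proteins such as Dnajb1 deliver clients and trigger hydrolysis, and HSP110 proteins such as Hsph1 act as nucleotide exchange factors. HSP90 proteins (Hsp90aa1, Hsp90ab1) take over clients at a late stage of folding, among them many kinases and hormone receptors, and small heat shock proteins such as Hspb1 keep unfolded proteins from aggregating without using ATP. In mitochondria, Hspd1 (HSP60) forms the barrel and Hspe1 (HSP10) the lid of the chaperonin. Hspa8 and Hsp90ab1 are made constitutively, while Hspa1a, Hspa1b, Dnajb1 and, in part, Hsp90aa1, Hsph1 and Hspb1 are induced by heat shock factor 1, which binds heat shock elements made of the unit GAA in alternating orientation. Ctu1 is a subunit of the enzyme that thiolates the wobble uridine of tRNAs reading AAA, CAA and GAA, together called VAA codons.

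Values below are CPM, that is, counts divided by the total of all listed genes in a library and multiplied by 1000000. They are therefore shares, and fewer footprints on a gene cannot be told apart from more footprints on other genes. Footprint libraries held between 4602092 and 52907878 counts and RNA-seq libraries between 129881946 and 325494304. Every count in the 23 RNA-seq libraries was even, against 45.8% to 50.4% odd counts in footprint libraries, so RNA-seq totals may overstate the number of fragments. Dividing RNA-seq counts by 2 left each member on the same side of the threshold. For footprints all replicates were used, and for transcripts replicates 1 to 3, because 6 later RNA-seq libraries had profiles that went against their treatment label (control torin 1 replicates 5 and 6, Ctu1 iKO DMSO replicates 4 and 5 and Ctu1 iKO torin 1 replicates 5 and 6), whereas none of the 15 footprint libraries of replicates 3 to 6 did. Replicates 1 and 2 set the scale of this check and were not themselves checked. On that scale the later torin 1 footprint libraries lay between 0.61 and 0.70, short of the 1 that replicates 1 and 2 define. Because these replicates set the scale, it cannot show whether they differ from the later ones. With DMSO the log2 change of Ctu1 itself in Ctu1 iKO was -0.54 in footprints (adjusted p = 0.353) and 0.02 in transcripts (adjusted p = 0.926), and it was listed in no torin 1 table, so these counts do not check the genotype labels. Of the epithelial markers, Krt8 was at 138 CPM ± 11.6 (SD, n = 3) in control transcripts with DMSO, while Cdh1 and Krt7 were not listed. Vim was at 2457 CPM ± 149 and Fn1 at 3384 CPM ± 805 (SD, n = 3). None of 5 acinar and none of 3 endothelial markers were listed. The summed level of 5 mesenchymal markers lay between 5380 and 6745 CPM in control cells with DMSO, between 7247 and 9077 with torin 1, between 6548 and 9817 in Ctu1 iKO cells with DMSO and between 10998 and 18376 with torin 1. In the same order of groups, the summed level of the listed epithelial markers lay between 293 and 310.3 CPM, 382 and 425 CPM, 319 and 399 CPM, and 532 and 599.95 CPM, while Cd14, the 1 immune marker listed in both sets of tables, lay between 2.96 and 3.32 CPM, 3.29 and 3.98 CPM, 3.64 and 4.17 CPM, and 5.10 and 5.89 CPM. These 3 were highest in Ctu1 iKO cells with torin 1. The summed level of the listed fibroblast markers lay between 117 and 196 CPM, 133 and 213 CPM, 129 and 213 CPM, and 100.3 and 326 CPM, and overlapped across the 4 groups. The part of these shifts in the results below was not tested.

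Levels of the 10 genes in control cells with DMSO spanned more than 2 orders of magnitude. Per kilobase of coding sequence, Hspa8 had 3581 footprint CPM ± 263 (SD, n = 6), rank 47 of 9584 genes with a coding sequence. It was followed by Hsp90ab1 with 2294 ± 156, Hsp90aa1 with 1556 ± 142, Hspd1 with 730 ± 61.7, Hspe1 with 599.8 ± 55.7 and Hsph1 with 197 ± 24.8 (SD, n = 6). Dnajb1 at 30.5 ± 4.35 and Hspb1 at 24.2 ± 4.01 were near the middle of all genes, at percentiles 64.0 and 58.5. Hspb1 and Dnajb1 overlapped in range (18.6 to 29.1 and 23.5 to 35.3), whereas the 6 genes above them did not overlap with their neighbours except Hspd1 (632 to 805) and Hspe1 (523 to 658). Hspa1b (15.3 ± 1.92) and Hspa1a (13.9 ± 1.64) were lowest and overlapped with each other, and the highest library of Hspa1b (18.8) was just above the lowest of Hspb1. In transcripts per kilobase of transcript, Hsp90ab1 came first with 1549 CPM ± 16.5, followed by Hspa8 with 1366 ± 45.8 and Hsp90aa1 with 609 ± 12.5 (SD, n = 3).

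Positions of the genes are those of GRCm38 (GENCODE M21). Hspa8 is at chr9:40800984-40810087 on the plus strand with 9 exons, Hsp90aa1 at chr12:110690605-110702728 and Hsp90ab1 at chr17:45567775-45573271, both on the minus strand with 11 exons. Hspa1a (chr17:34969190-34972156) and Hspa1b (chr17:34956436-34959238) are intronless neighbours on the minus strand. Hsph1 (chr5:149614287-149636376, minus strand), Hspb1 (chr5:135887919-135889563, plus strand) and Dnajb1 (chr8:83608193-83612653, plus strand) have 19, 3 and 3 exons. Hspd1 (chr1:55077835-55088243, minus strand, 12 exons) and Hspe1 (chr1:55088132-55091307, plus strand, 4 exons) start head to head and share 112 bases on opposite strands.

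The promoter windows of 7 of the 10 genes were available from RefSeq (GRCm38.p6, 250 bases before to 50 after a start site, 10 windows), and none for Hspa8, Hsp90aa1 and Hsp90ab1. They were searched for alternating GAA and TTC units, which are the letters of a heat shock element on either strand. At least 3 units in a row (GAANNTTCNNGAA or TTCNNGAANNTTC) stood in the window of Hspe1, in 1 of the 2 windows of Hspd1 and in both windows of Hsph1, against 0.603% of all 32851 windows of this length. Pairs of units (GAANNTTC or TTCNNGAA, each its own reverse complement and contained in the longer motif) stood in those of Hspb1, Hspa1a and Hspa1b and in 15.1% of all windows, and in neither of the windows of Dnajb1. A match describes letters only and is not evidence of binding. The runs are shown because they separate the members that share an element from those that do not, with the units and the bases between them in capitals, 5′ to 3′ on the strand of the gene. The Hspe1 run (chr1:55088053-55088082, plus strand) begins 89 bases before the Hspe1 start site, and on the opposite strand the same bases lie 144 before a start site of Hspd1. The Hsph1 run (chr5:149636287-149636316, minus strand) lies after the start site. The run of Hspa1a (chr17:34972242-34972271, minus strand) has the same 30 bases as that of Hspa1b (chr17:34959324-34959353, minus strand), both 104 bases before the start, and the 300-base windows of these genes differ at 4 bases. Hspb1 holds 2 pairs (chr5:135887791-135887820 and chr5:135887811-135887840, plus strand).
Hspe1: ggtccgTTCTAGAACCTTCCGGAAggcccc
Hsph1: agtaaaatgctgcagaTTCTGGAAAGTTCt
Hspa1a and Hspa1b: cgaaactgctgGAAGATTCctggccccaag
Hspb1, first pair: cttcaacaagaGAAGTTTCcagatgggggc
Hspb1, second pair: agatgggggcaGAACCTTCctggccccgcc

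The members differ in the codons whose tRNAs Ctu1 modifies. VAA codons made up 12.7% of the coding sequence of Hspe1, 12.3% of Hsp90aa1, 12.2% of Hspd1 and 10.6% of Hsph1, against a median of 6.13% over 9584 genes. Hsp90ab1 (5.94%), Dnajb1 (5.88%), Hspa8 (5.73%) and Hspb1 (5.26%) lay just under that median. Hspa1a (0.468%) and Hspa1b (0.312%) were almost free of VAA, at percentiles 0.355 and 0.303. AAA was 63.0% of the lysine codons of Hspd1 and 0% of those of Hspa1a. The coding sequences of Hsp90aa1 and Hsp90ab1 were 76.6% identical, and those of Hspa1a and Hspa1b 99.6%, with 8 differing bases. Footprints were at least 27 bases long, and 89.9% of the 27-base stretches of the Hspa1a coding sequence also occur in Hspa1b, so counts of this pair are uncertain. For Hsp90aa1 and Hsp90ab1 that share was 0.322%. To show the contrast, 20 codons of 1 exon are printed with VAA codons in capitals, chosen as the stretch of Hsp90aa1 richest in VAA among those that align in frame and without gaps with 1 exon of Hsp90ab1 (codons 243 to 262, chr12:110694221-110694280, minus strand, 9 VAA codons), its aligned stretch in Hsp90ab1 (codons 235 to 254, chr17:45570453-45570512, minus strand, 3 VAA codons), and the richest stretch of Hspd1 (codons 354 to 373, chr1:55080198-55080257, minus strand, 7 VAA codons) and of Hspa1a (codons 284 to 303, chr17:34971017-34971076, minus strand, 1 VAA codon). The stretches of Hspd1 and Hspa1a were chosen without the condition on alignment.
Hsp90aa1: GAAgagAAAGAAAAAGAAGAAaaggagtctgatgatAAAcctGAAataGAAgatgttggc
Hsp90ab1: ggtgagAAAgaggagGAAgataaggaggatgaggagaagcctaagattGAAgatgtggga
Hspd1: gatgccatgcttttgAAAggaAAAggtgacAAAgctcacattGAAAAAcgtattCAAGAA
Hspa1a: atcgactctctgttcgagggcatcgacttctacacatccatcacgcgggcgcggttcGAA

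**Figure D1:**
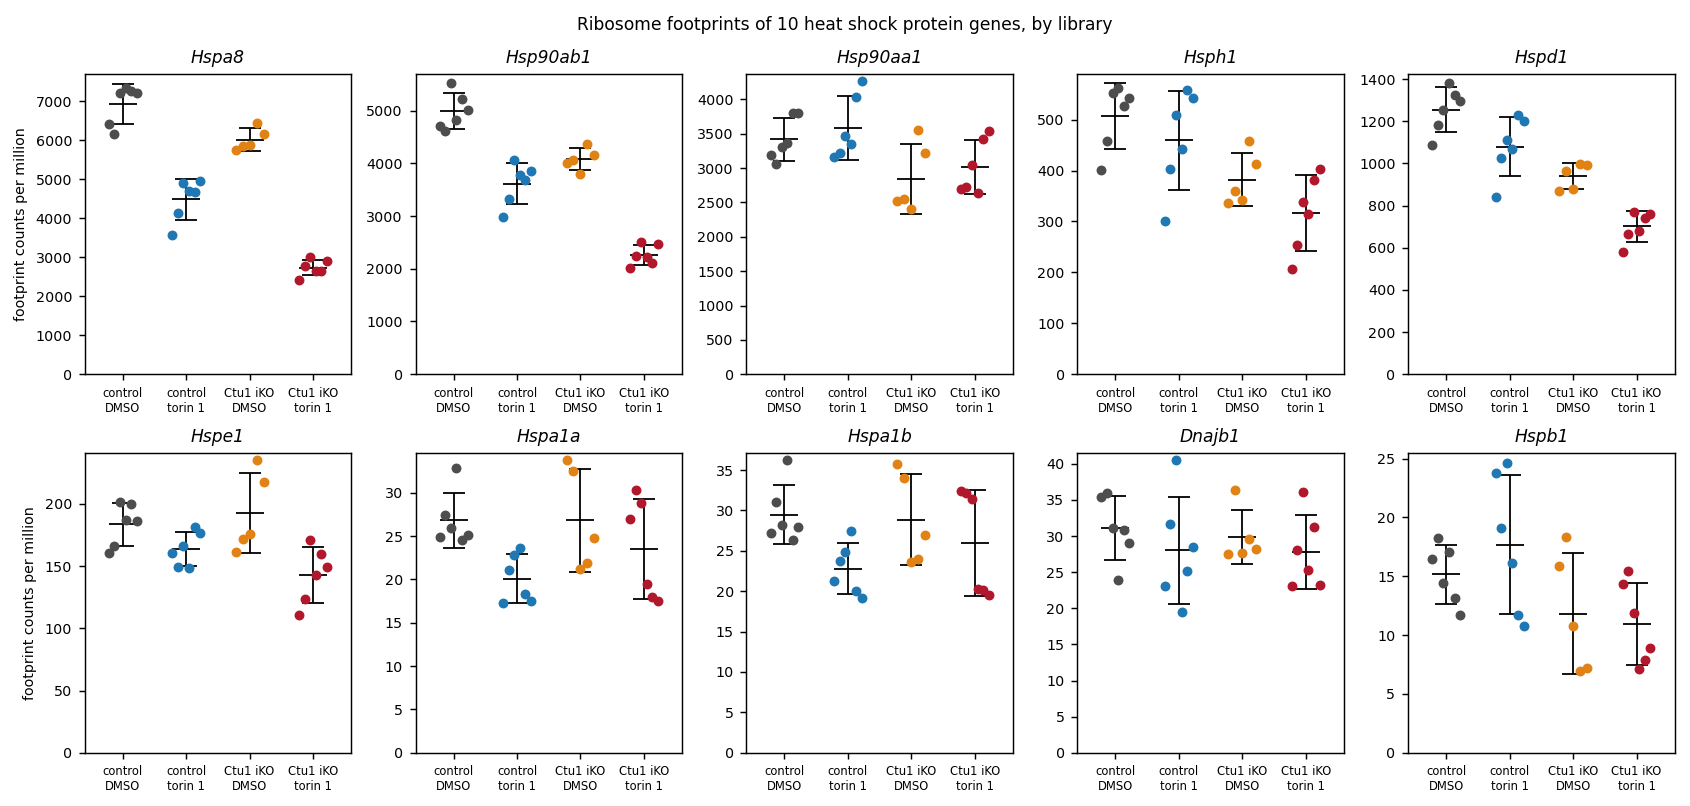
Footprint CPM (y axis, from 0) of the 10 genes in each of the 4 groups, with 1 point per library and bars for the mean ± SD. The torin 1 libraries of Hspa8 and Hsp90ab1 lie below all DMSO libraries of the same genotype, and those of Hsp90aa1 overlap with them.

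Torin 1 lowered the footprints of the constitutive chaperones Hspa8 and Hsp90ab1 in control and in Ctu1-deficient cells, while Hsp90aa1 stayed at a log2 change near 0 in both. In control cells, 4 of 10 members fell and none rose, where 7.24% of all genes tested were called, 2.91% higher and 4.33% lower. In Ctu1-deficient cells, 4 of 10 fell and none rose, where 8.00% of genes were called, 3.48% higher and 4.52% lower. The median log2 change of the members was -0.28 in control and -0.33 in Ctu1-deficient cells, against 0.01 and 0.02 over all genes.

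Hspa8, the constitutive cytosolic HSP70, had footprints between 6172 and 7356 CPM in control cells with DMSO (median 7217, n = 6). With torin 1 they were between 3585 and 4954 CPM (median 4683, n = 6). In Ctu1-deficient cells the 5 DMSO libraries read 5745, 5855, 5873, 6458 and 6175 CPM, and the torin 1 libraries lay between 2429 and 3000.4 CPM (median 2714, n = 6). The groups did not overlap for either genotype, and all 6 and all 5 same-numbered pairs moved down. Footprints fell by 39.2% in control cells (log2 change -0.72 ± 0.10 SE, adjusted p = 0.00018) and fell by 57.5% in Ctu1-deficient cells (log2 change -1.23 ± 0.07 SE, adjusted p = 2.84e-08). The difference between these effects was itself past the threshold (interaction -0.51 ± 0.12 SE, adjusted p = 0.0376), and by edgeR Hspa8 was the only member to pass it, where 0.639% of all genes did. Of the 23 fits that left out 1 library, 17 lost this call, with adjusted p up to 0.0773. It was kept only without control DMSO replicate 4, control torin 1 replicate 1 or 2, or Ctu1 iKO torin 1 replicate 2, 3 or 6. Replicates 1 and 2 alone gave -0.45 (adjusted p = 0.9998), where 0.0102% of all genes were called.

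Hsp90ab1, the constitutive cytosolic HSP90, followed the same course. Footprints in control cells ranged from 4615 to 5515 CPM with DMSO (median 4917, n = 6) and from 2981 to 4059.9 CPM with torin 1 (median 3732, n = 6). In Ctu1-deficient cells the DMSO libraries read 3999, 4066, 3803, 4371 and 4165 CPM, and the torin 1 libraries ranged from 2013 to 2509.9 CPM (median 2229.6, n = 6). Again the groups did not overlap in either genotype. Footprints fell by 31.8% in control (log2 change -0.55 ± 0.09 SE, adjusted p = 0.00121) and fell by 48.2% in Ctu1-deficient cells (-0.95 ± 0.08 SE, adjusted p = 9.26e-07). The control call ended with replicates 1 to 3 alone (-0.61, adjusted p = 0.103), where 1.40% of all genes were called. The interaction of -0.39 did not pass the threshold by edgeR (adjusted p = 0.206), and did by DESeq2 (-0.40, adjusted p = 0.0458), which called 1.09% of all genes, and with the replicate number as a block (-0.40, adjusted p = 0.015), where 1.41% were called.

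Hsp90aa1, the heat-inducible HSP90 paralogue, showed no detectable shift. Its footprints in control cells ranged from 3056 to 3808 CPM with DMSO (median 3338) and from 3159 to 4269.6 CPM with torin 1 (median 3411). The log2 change was -0.02 in control (95% interval -0.22 to 0.18) and -0.01 in Ctu1-deficient cells (95% interval -0.27 to 0.24), so falls as large as those of Hsp90ab1 lie outside both intervals. The ratio of the paralogues within each library needs no scaling. On the log2 scale, Hsp90ab1 to Hsp90aa1 footprints were 0.54 ± 0.12 in control cells with DMSO (SD, n = 6) and 0.01 ± 0.16 with torin 1 (n = 6). In Ctu1-deficient cells the ratio was 0.54 ± 0.18 with DMSO (n = 5) and -0.41 ± 0.17 with torin 1 (n = 6). Lowest to highest, it ran from 0.40 to 0.74 and from -0.15 to 0.23 in control, and from 0.30 to 0.68 and from -0.70 to -0.25 in Ctu1-deficient cells, with no overlap between treatments. This ratio was chosen after the values had been seen and is a description.

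Footprints of the inducible HSP70 genes fell with torin 1 in control cells. Hspa1a footprints ranged from 24.5 to 32.9 CPM with DMSO (median 25.6, n = 6) and from 17.3 to 23.6 with torin 1 (median 19.7, n = 6), with no overlap and a log2 change of -0.51 ± 0.13 SE (adjusted p = 0.0226). The call ended with replicates 3 to 6 (adjusted p = 0.0923), 1 to 3 (adjusted p = 0.379) or 1 and 2 alone (adjusted p = 0.422), at log2 changes of -0.49, -0.45 and -0.54. Hspa1b gave -0.47 ± 0.13 SE (adjusted p = 0.0382) with groups that overlapped, and -0.38 with adjusted p = 0.0576 when libraries were scaled by their totals. Because reads of this pair are hard to assign to 1 gene, the calls are not independent, and their summed counts gave -0.49 (adjusted p = 0.0246). Their transcript changes in the same comparison were -0.55 and -0.49 (adjusted p = 0.158 and 0.294), and their changes in translational efficiency, the ratio of footprints to transcripts, were 0.10 and 0.09 (adjusted p = 0.996 for both). In Ctu1-deficient cells with torin 1, Hspa1a read 26.9, 30.3, 28.8, 19.5, 18.0 and 17.5 CPM in replicates 1 to 6, and 33.8, 32.5, 21.3, 21.8 and 24.7 CPM with DMSO in replicates 1 to 5. The groups overlapped, and the change of -0.29 missed the threshold (adjusted p = 0.433, 95% interval -0.71 to 0.13).

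The mitochondrial chaperonin fell with torin 1 in Ctu1-deficient cells. Hspd1 footprints there read 871, 966, 877, 998 and 991 CPM with DMSO and ranged from 582 to 771 CPM with torin 1 (median 712, n = 6), without overlap (log2 change -0.52 ± 0.09 SE, adjusted p = 0.00168). Its lid Hspe1 read 162, 172, 176, 235 and 218 CPM with DMSO and 111 to 171 CPM with torin 1 (median 146), with overlap (-0.52 ± 0.13 SE, adjusted p = 0.0229). The Hspe1 call ended without Ctu1 iKO DMSO replicate 4 or 5 or torin 1 replicate 2 (adjusted p up to 0.0688). The calls of Hspd1 and Hspe1 both ended with replicates 1 to 3 alone (adjusted p = 0.126 and 0.369), where 1.81% of all genes were called. They also ended with replicates 1 and 2 alone (adjusted p = 0.124 and 0.259), where 1.47% were called. In control cells the changes were -0.31 for Hspd1 (adjusted p = 0.088) and -0.26 for Hspe1 (adjusted p = 0.0772). For neither was the difference between genotypes past the threshold (interactions -0.21 and -0.26, adjusted p = 0.9998 for both). In control cells the same-numbered libraries deviated together, and a fit with the replicate number as a block called 7 members lower, adding Hspd1 (-0.31, adjusted p = 0.00161), Hspe1 (-0.25, adjusted p = 0.00874) and Hsph1 (-0.25, adjusted p = 0.0278), where 20.5% of all genes were called. DESeq2 without the block called 6 members, Hspd1 (adjusted p = 0.0406) and Hspe1 (adjusted p = 0.0347) among them, where 10.8% of all genes were called.

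Dnajb1 (log2 change -0.24 in control and -0.20 in Ctu1-deficient cells), Hspb1 (0.12 and -0.21) and Hsph1 (-0.23 and -0.37) did not pass the threshold with torin 1 in footprints without the replicate block. With the block Hsph1 was called in control, as given above. It was also called in Ctu1-deficient cells (-0.47, adjusted p = 0.0234), where 9.97% of all genes were called. The spread of these genes was wide. Dnajb1 ranged from 19.5 to 40.5 CPM in control cells with torin 1 alone, and Hspb1 from 10.8 to 24.6 CPM. Scaling by library totals moved the median log2 change of all genes from 0.01 to 0.10 in control and from 0.02 to 0.11 in Ctu1-deficient footprints, and members shifted with it. Under that scaling Hsp90aa1 read 0.07 and 0.08, which is close to the shifted medians.

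Of the transcripts, 1 of 10 passed the test with torin 1 in control cells, Hsp90ab1, which rose, where 13.1% of genes were called, 5.69% higher and 7.40% lower. Its transcripts read 3925, 3928 and 3855 CPM with DMSO and 4829, 4744 and 4513 CPM with torin 1 (n = 3 each), so all torin 1 libraries were above all DMSO libraries. The log2 change was 0.29 ± 0.06 SE (adjusted p = 0.0168). In Ctu1-deficient cells it was again the only member called, where 8.25% of genes were called, 3.73% higher and 4.52% lower, at 3337, 3533 and 3121 CPM with DMSO against 4608, 4602 and 4393 CPM with torin 1 (0.50 ± 0.08 SE, adjusted p = 0.0124). With all 6 and 5 replicates as labelled, the libraries whose profiles go against their labels included, the changes were 0.15 (adjusted p = 0.365) and 0.19 (adjusted p = 0.974). With 3 libraries a group, leaving out any of 4 libraries in control (DMSO or torin 1 replicates 1 and 2) and any of 3 in Ctu1 iKO (DMSO replicates 1 and 2, torin 1 replicate 2) ended the call, with adjusted p up to 0.0881 and 0.0673. Hspa8 transcripts read 3201, 3213 and 3397 CPM with DMSO and 3305, 3279 and 3632 CPM with torin 1 in control (log2 change 0.08, adjusted p = 0.535). In Ctu1-deficient cells they read 2940, 3215 and 3251 CPM and 3576, 3574 and 4259 CPM, which did not overlap (0.34, adjusted p = 0.0884). Hspa1a transcripts in control were lower in all 3 torin 1 libraries than in all 3 DMSO libraries (-0.55, 95% interval -1.07 to -0.03), without passing the threshold (adjusted p = 0.158). Hspa1b gave -0.49 (adjusted p = 0.294), and it was called without control torin 1 replicate 3 (-0.83, adjusted p = 0.039) and with replicates 1 and 2 alone (-0.62, adjusted p = 0.0289). RNA-seq libraries with the same number deviated together. With the number as a block, 4 members were called in control, where 43.7% of genes were called, adding Hspa1a (-0.55, adjusted p = 0.0492), Hspa1b (-0.52, adjusted p = 0.0021) and Hsph1 (-0.29, adjusted p = 0.002), and in Ctu1-deficient cells Hspa8 (0.33, adjusted p = 0.00225) was added, where 35.1% of genes were called.

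**Figure D2:**
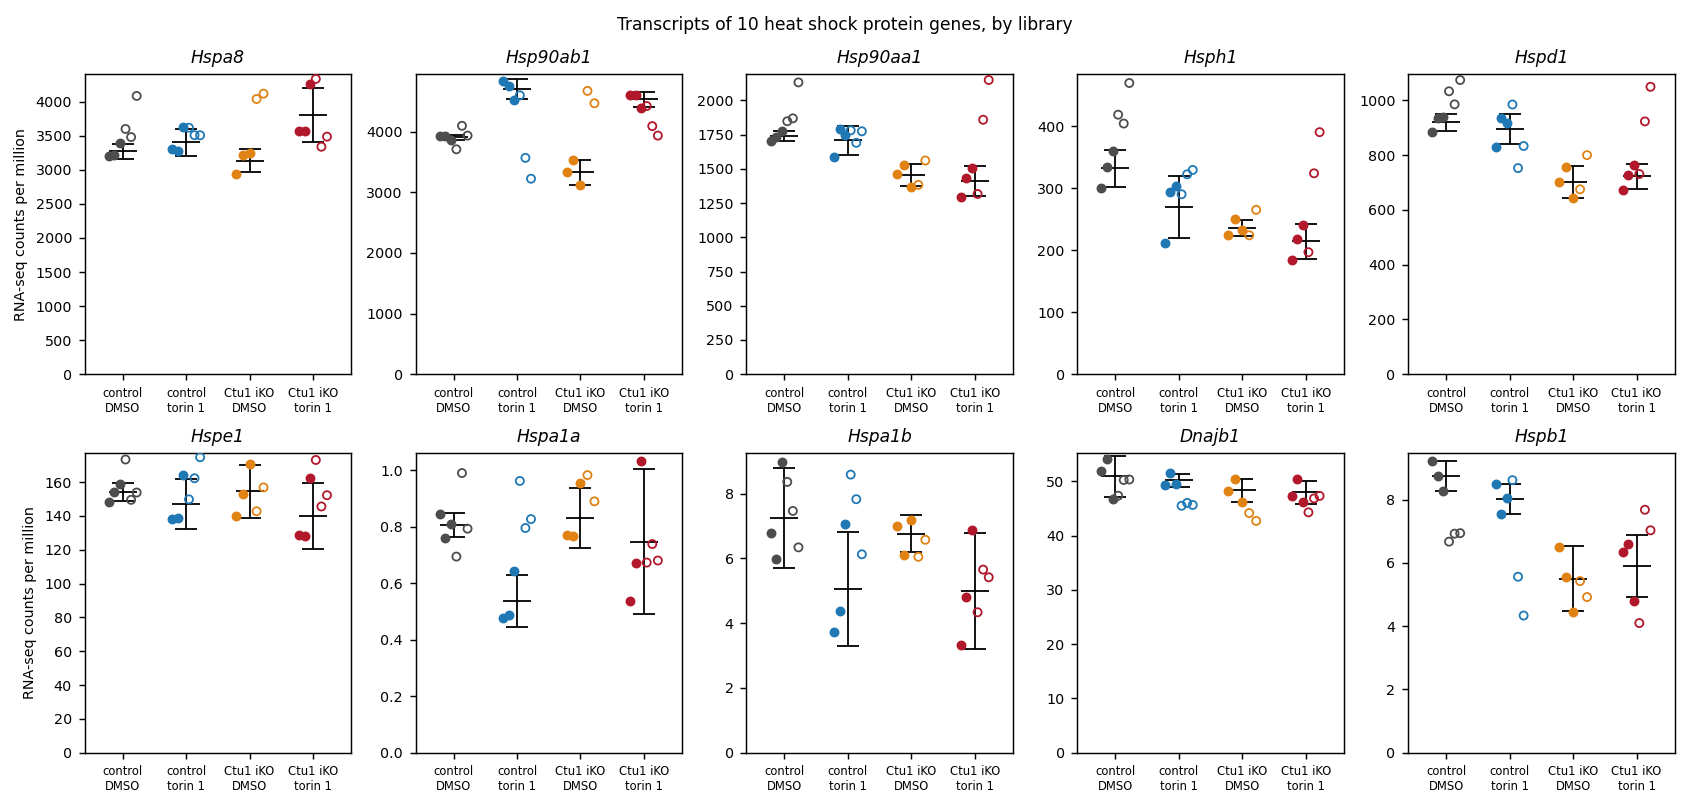
RNA-seq CPM (y axis, from 0) of the 10 genes in each group. Filled points are replicates 1 to 3, which were tested and which the mean ± SD bars summarise, and open points are later replicates, some of which have profiles that go against their labels. Hsp90ab1 is higher with torin 1 in all filled points of both genotypes.

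Translational efficiency, the ratio of footprints to transcripts, fell with torin 1 for 2 of 10 members in each genotype, and the members were Hspa8 and Hsp90ab1 both times. The test did not pair the footprint and RNA-seq libraries of a replicate, while the CPM ratios below are within a replicate. Over all genes 1.18% were called in control (0.0520% higher and 1.12% lower) and 1.77% in Ctu1-deficient cells (0.0936% higher and 1.67% lower). The log2 ratio of footprint CPM to RNA CPM of Hspa8 was 1.01 ± 0.07 in control cells with DMSO, 0.29 ± 0.16 with torin 1, 0.89 ± 0.06 in Ctu1-deficient cells with DMSO and -0.48 ± 0.10 with torin 1 (SD, n = 3 each). For Hsp90ab1 the ratios were 0.34 ± 0.16, -0.45 ± 0.28, 0.25 ± 0.04 and -1.01 ± 0.19 in the same order. In neither gene did the treatments overlap in either genotype. Efficiency of Hspa8 fell by 43.9% in control (log2 change -0.83 ± 0.17 SE, adjusted p = 0.031) and fell by 65.5% in Ctu1-deficient cells (-1.53 ± 0.14 SE, adjusted p = 3.53e-05). That of Hsp90ab1 fell by 46.7% (-0.91 ± 0.16 SE, adjusted p = 0.0132) and fell by 62.6% (-1.42 ± 0.13 SE, adjusted p = 2.94e-05). The calls in Ctu1-deficient cells held without any 1 replicate, while both calls in control ended without DMSO replicate 1, 2 or 3 or torin 1 replicate 1 or 2 (adjusted p up to 0.232 for Hspa8 and 0.131 for Hsp90ab1). Scaling by library totals ended the control call of Hspa8 (log2 change -0.70), where 0.998% of all genes were called. With all replicates as labelled, the RNA-seq libraries whose profiles go against their labels included, the control values of Hspa8 and Hsp90ab1 were -0.74 (adjusted p = 0.000101) and -0.70 (adjusted p = 0.00126), where 1.72% of genes were called.

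The efficiency of Hsp90aa1 changed by -0.06 in control (95% interval -0.33 to 0.21) and by 0.06 in Ctu1-deficient cells (95% interval -0.23 to 0.34). In log2 footprint CPM per RNA CPM, its 3 torin 1 replicates in Ctu1-deficient cells (0.93 to 1.06) lay above the 3 DMSO replicates (0.74 to 0.81). This ratio is scaled by library totals, under which the median change of all genes there was 0.20. Hspd1 gave -0.33 (adjusted p = 0.824) and -0.63 (adjusted p = 0.105), and in Ctu1-deficient cells its 3 torin 1 replicates lay below the 3 DMSO replicates, at -0.11 ± 0.11 against 0.37 ± 0.07. With a term for the lysate the latter change was -0.64 and passed the threshold (adjusted p = 0.0222), as it did with DESeq2 (-0.63, adjusted p = 0.00906) and with all replicates as labelled (-0.71, adjusted p = 0.00229). Over all genes these settings called 2.03%, 3.27% and 2.67%. The last of them includes RNA-seq libraries whose profiles go against their labels. Hspb1 was the only member with a control change above 0.1 (0.46, adjusted p = 0.66). Under scaling by library totals the median efficiency change of all genes moved from 0.03 to 0.16 in control and from 0.03 to 0.20 in Ctu1-deficient cells.

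**Figure D3:**
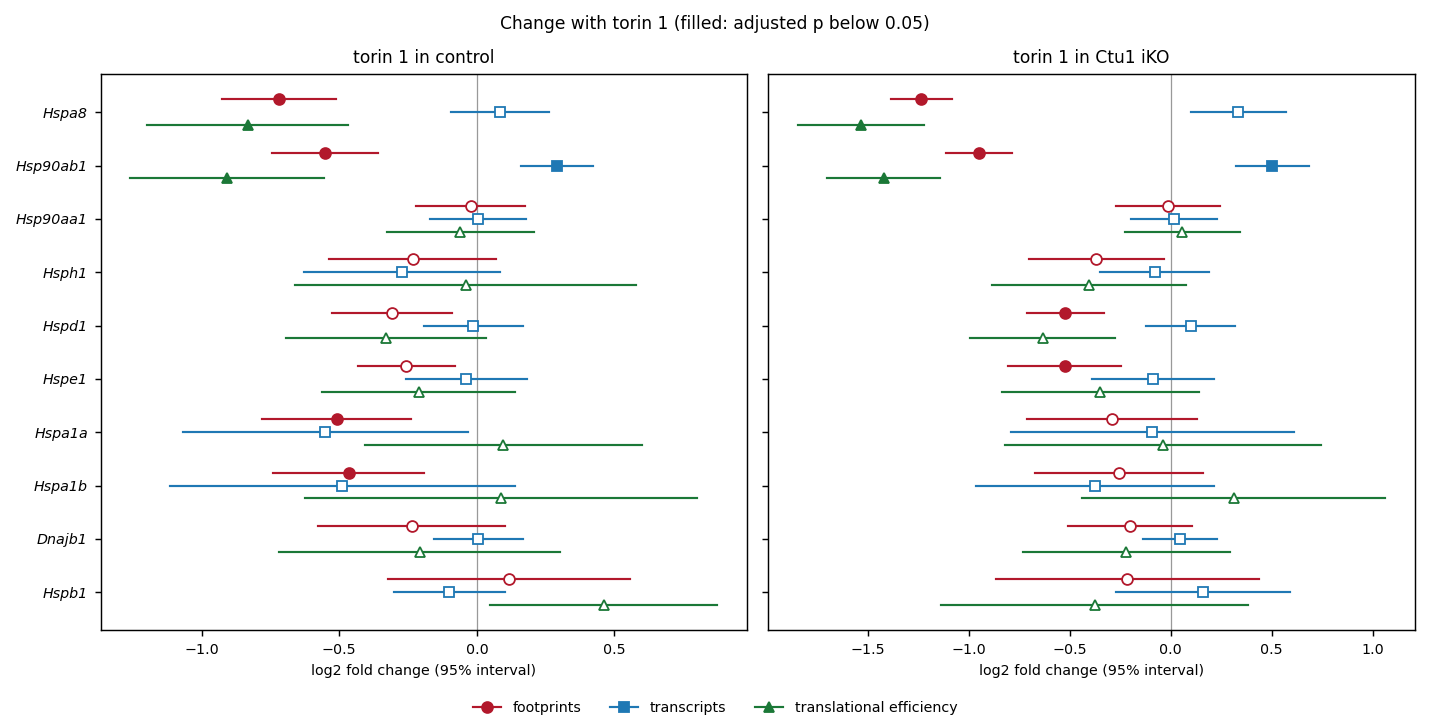
Log2 fold change with torin 1 (x axis) of the 10 genes in control and Ctu1 iKO cells, for footprints, transcripts and translational efficiency, with 95% intervals and filled symbols where the adjusted p is below 0.05. Hspa8 and Hsp90ab1 have footprint and efficiency values left of 0 and transcript values right of it, and Hsp90aa1 sits near 0 in all 3.

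Loss of Ctu1 lowered the footprints of Hspd1 and Hsp90ab1 in DMSO and in torin 1. With DMSO, 3 of 10 members fell and none rose, where 2.66% of genes were called, 1.63% higher and 1.04% lower. With torin 1, 3 of 10 fell and none rose, where 4.83% were called, 2.23% higher and 2.60% lower. These comparisons share no library with each other, but each shares libraries with a torin 1 comparison above.

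Hspd1 footprints were between 1087 and 1384 CPM in control cells with DMSO (median 1275, n = 6), above all 5 values in Ctu1-deficient cells given above (log2 change -0.46 ± 0.08 SE, adjusted p = 0.0122). With torin 1, control cells ranged from 840.02 to 1229.8 CPM (median 1090.3, n = 6), above all Ctu1-deficient libraries (-0.67 ± 0.11 SE, adjusted p = 0.00195). Hsp90ab1 changed by -0.33 ± 0.07 SE with DMSO (adjusted p = 0.0204) and by -0.72 ± 0.10 SE with torin 1 (adjusted p = 0.000374), also without overlap in either medium. The DMSO call of Hsp90ab1 ended without Ctu1 iKO DMSO replicate 3 (adjusted p = 0.0563). It also ended with replicates 3 to 6 alone (adjusted p = 0.0526) and with replicates 1 to 3 alone (adjusted p = 0.245). Hspa8 differed by -0.24 with DMSO, short of the threshold by edgeR (adjusted p = 0.0785) but past it by DESeq2 (adjusted p = 0.028) and with the replicate block (adjusted p = 0.0484), and by -0.76 ± 0.10 SE with torin 1 (adjusted p = 0.000265), where the groups did not overlap. Hsph1 was called with DMSO at the edge (-0.45 ± 0.11 SE, adjusted p = 0.0483). Its 6 control libraries ranged from 402 to 563 CPM and the 5 Ctu1-deficient libraries read 335, 359, 343, 457 and 413 CPM, which overlap, and 9 of the 11 fits that left out 1 library lost the call (adjusted p up to 0.104).

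Replicates 1 and 2 alone gave changes of the same sign for these genes, of -0.34 (Hspd1), -0.24 (Hsp90ab1) and -0.34 (Hsph1) with DMSO, in a fit that called 0 of 10358 genes. Under torin 1, replicates 1 to 3 alone gave -0.66 (Hspa8), -0.66 (Hsp90ab1) and -0.60 (Hspd1). All were short of the threshold (adjusted p = 0.254, 0.267 and 0.361), where 0.0101% of all genes were called. With torin 1 same-numbered libraries deviated together, and the fit with the replicate block called 7 members lower, where 14.4% of all genes were called. It added Hsph1 (-0.59, adjusted p = 7.8e-05), Hspb1 (-0.72, adjusted p = 0.0141), Hsp90aa1 (-0.29, adjusted p = 0.00209) and Hspe1 (-0.25, adjusted p = 0.0464). The inducible Hspa1a and Hspa1b, the members with almost no VAA codons, were at -0.04 and -0.07 with DMSO and at 0.18 and 0.14 with torin 1, with intervals that include 0. The part of codon content in the changes with loss of Ctu1 was not tested. In Ctu1-deficient cells with torin 1, replicates 1 to 3 of Hspa1a lay above all later ones, as given above.

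The barrel and the lid of the chaperonin gave different values under loss of Ctu1, a difference that was not tested. Hspe1, which has the highest share of VAA codons among the 10, changed by 0.03 in footprints with DMSO (95% interval -0.21 to 0.26), while Hspd1 fell. The log2 ratio of Hspd1 to Hspe1 footprints was 2.77 ± 0.09 in control (n = 6) and 2.30 ± 0.17 in Ctu1-deficient cells (n = 5) with DMSO, and 2.71 ± 0.16 and 2.30 ± 0.10 with torin 1 (n = 6 each). With DMSO the ranges were 2.64 to 2.89 and 2.09 to 2.49, with no overlap, and with torin 1 they overlapped (2.39 to 2.85 and 2.18 to 2.43). In transcripts with DMSO the ratio was 2.58 ± 0.02 and 2.18 ± 0.23 (n = 3 each), without overlap, and with torin 1 it was 2.61 ± 0.14 and 2.37 ± 0.13 (n = 3 each), with overlap. These ratios too were chosen after the values had been seen and carry no test.

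In transcripts, loss of Ctu1 with DMSO lowered Hsph1, Hspb1 and Hspd1, 3 of 10 members, where 5.12% of genes were called, 3.32% higher and 1.80% lower. Hspd1 read 884, 934 and 940.3 CPM in control and 702, 758 and 643 CPM in Ctu1-deficient cells (-0.37 ± 0.08 SE, adjusted p = 0.0437). Hsph1 read 300.5, 335 and 360.2 CPM against 225, 250.02 and 232 CPM (-0.48 ± 0.09 SE, adjusted p = 0.0341), and Hspb1 9.23, 8.76 and 8.29 CPM against 6.50, 5.56 and 4.44 CPM (-0.66 ± 0.14 SE, adjusted p = 0.0434). None of these groups overlapped. Each call ended without most single libraries (5 of 6 for Hsph1 and Hspb1 and 6 of 6 for Hspd1, adjusted p up to 0.176). All replicates as labelled include Ctu1 iKO DMSO replicates 4 and 5, whose profiles go against their treatment label. With them the values were -0.63, -0.50 and -0.40 and were called (adjusted p = 0.00228, 0.00938 and 0.00398), as was Hsp90aa1 (-0.29, adjusted p = 0.0121), where 26.4% of genes were called. The replicate block called 5 members, adding Hsp90aa1 (-0.24, adjusted p = 0.0175) and Hsp90ab1 (-0.21, adjusted p = 0.0241), where 28.0% of genes were called.

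With torin 1, edgeR called 0 of 10 transcripts for loss of Ctu1 at an adjusted p under 0.05, where 1.31% of genes were called, 0.953% higher and 0.352% lower. DESeq2 also called 0 of 10, where it called 11.3% of genes. At an unadjusted p under 0.05 there were 3 (Hspd1 -0.26, Hspb1 -0.39 and Hsp90aa1 -0.23), where 1932 of 9650 genes passed. The block called 5, namely Hspd1, Hspb1, Hsp90aa1 and Hsph1 lower and Hspa8 higher (0.21, adjusted p = 0.00628), where 32.8% of genes were called. Hsp90ab1, whose footprints fell in this comparison, had a transcript change of 0.00 (95% interval -0.15 to 0.15). For the interaction of genotype and treatment edgeR and DESeq2 called 0 of 10 transcripts, where they called 0% and 0.0312% of genes, and 1 passed at an unadjusted p under 0.05 (Hsp90ab1, 0.22), as did 140 of 9616 genes.

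No member passed the threshold in translational efficiency for loss of Ctu1 by edgeR with replicates 1 to 3. With DMSO edgeR and DESeq2 called 0 members and 0 passed at an unadjusted p under 0.05, where 380 of 10117 genes did. After adjustment edgeR called 0% of all genes and DESeq2 0.208%. The value of Hspd1 was -0.04 (95% interval -0.32 to 0.24), that of Hsp90ab1 -0.15 (-0.39 to 0.09) and that of Hsph1 -0.01 (-0.37 to 0.36). With torin 1 edgeR called 0 members where 0.114% of genes were called. At an unadjusted p under 0.05, which 451 of 9644 genes passed, there were 2, Hspa8 (-0.86, adjusted p = 0.17) and Hsp90ab1 (-0.64, adjusted p = 0.351), and both were called by DESeq2, which called 1.03% of all genes, and when all replicates were used as labelled, where 1.17% of all genes were called. The set of all replicates includes RNA-seq libraries whose profiles go against their labels. For Hspa8, Hsp90ab1, Hspb1 and Hspd1 the CPM ratios of the 3 Ctu1-deficient replicates lay below those of the 3 control replicates. How many of all genes separated in this way was not counted.

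**Figure D4:**
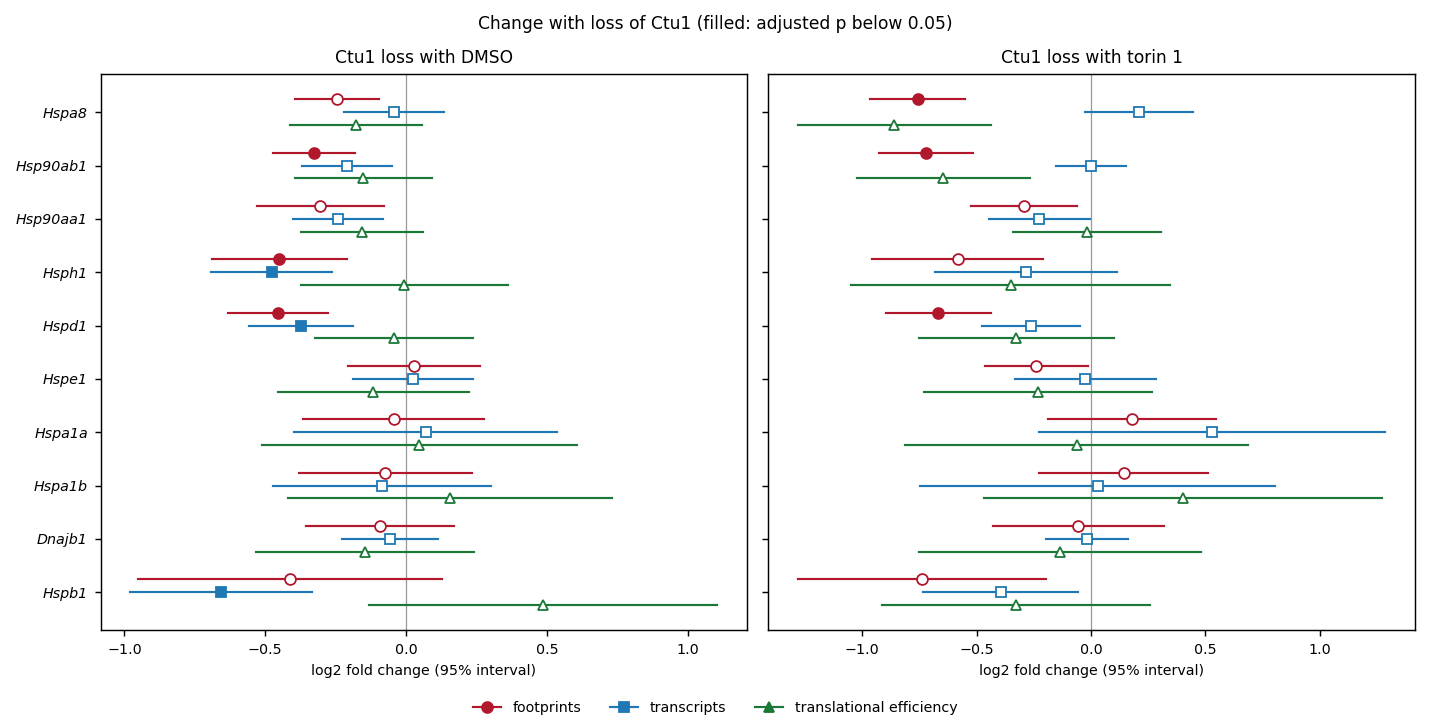
Log2 fold change with loss of Ctu1 (x axis) of the 10 genes in DMSO and in torin 1, for footprints, transcripts and translational efficiency, with 95% intervals and filled symbols where the adjusted p is below 0.05. Hspd1 footprints are left of 0 in both treatments, and no efficiency symbol is filled.

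**Figure D5:**
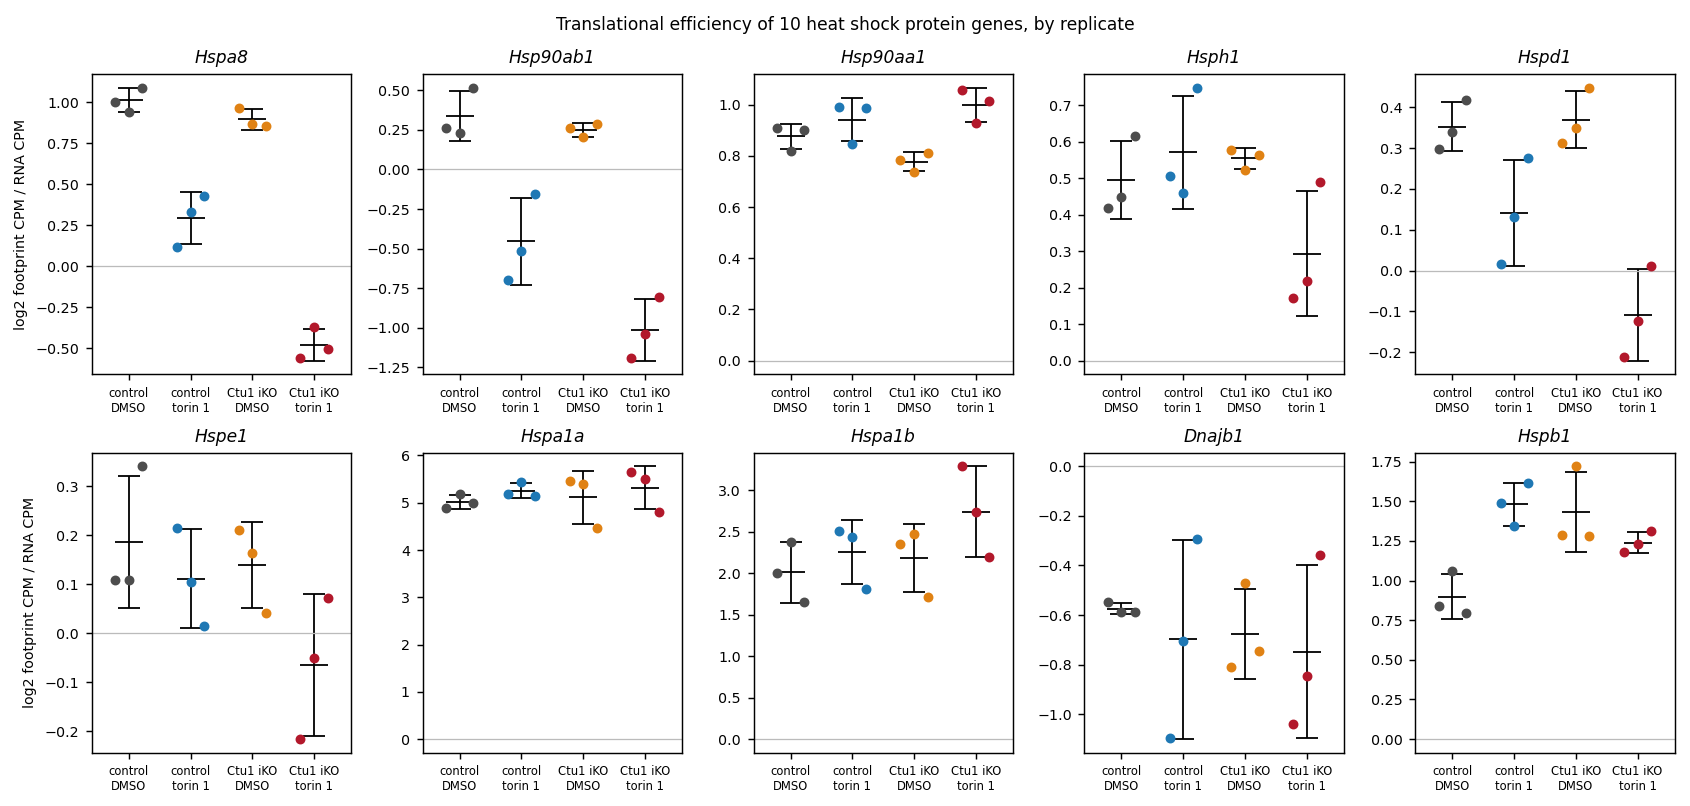
Translational efficiency as log2 of footprint CPM per RNA CPM (y axis, with its own range in each panel) in replicates 1 to 3 of each group, with 1 point per replicate and bars for the mean ± SD. Hspa8 falls from 1.01 to -0.48 between control cells with DMSO and Ctu1 iKO cells with torin 1, and Hsp90aa1 lies between 0.74 and 1.06 in all replicates, in Ctu1 iKO cells higher with torin 1 than with DMSO. The ratios are scaled by library totals, under which the median change of all genes with torin 1 in Ctu1 iKO cells was 0.20.

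Partners and regulators of these chaperones were described by lists. Of 57 genes in 5 lists of partners and regulators, 54 were listed in both sets of tables and 55 in those of DMSO. Cryab, Hspb2 and Hspb6 of the small heat shock proteins were the 3 not listed in both. With torin 1 in control cells, 3 of 54 footprint changes passed the test, all lower, where 7.24% of all genes were called. They were Dnaja1 (-0.34, adjusted p = 0.0321), an HSP40, Bag2 (-0.51, adjusted p = 0.0283), a nucleotide exchange factor of HSP70, and Grpel2 (-0.49, adjusted p = 0.00837), an exchange factor of mitochondrial HSP70. In Ctu1-deficient cells, where 8.00% of all genes were called, 1 of 54 rose, the HSP40 gene Dnajb4 (0.62, adjusted p = 0.0156), and 1 fell, Dnajc19 of the mitochondrial import motor (-0.47, adjusted p = 0.0457). Median log2 changes over the 54 were -0.07 and -0.10, against 0.01 and 0.02 over all genes.

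Of the HSP90 co-chaperones, 3 of 14 had lower footprints with loss of Ctu1 in DMSO and none rose, where 2.66% of all genes were called and 1.04% lower. They were Cacybp (-0.46, adjusted p = 0.0303), Ppid (-0.45, adjusted p = 0.0303), a prolyl isomerase bound to HSP90, and Stip1 (-0.27, adjusted p = 0.0483), which bridges HSP70 and HSP90. With torin 1, 4 of 14 fell and none rose, where 4.83% of all genes were called and 2.60% lower, among them Cacybp (-0.55, adjusted p = 0.0366), Sugt1 (-0.50, adjusted p = 0.0293) and Ppid (-0.50, adjusted p = 0.0259). The list medians were -0.13 and -0.19. Among 20 HSP70 partners, 0 were called with DMSO and 1 with torin 1, the cochaperone St13 (-0.44, adjusted p = 0.0384). None of the 15 mitochondrial chaperones and proteases and none of the 4 heat shock factor genes was called in footprints for loss of Ctu1, and the listed small heat shock proteins were not called either. The lists were drawn up with earlier results of these data known, so their counts are a description.

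In transcripts with torin 1 in control cells, 6 of 54 partner genes were called, where 13.1% of all genes were, 1 higher (Dnajb4, 0.52, adjusted p = 0.018) and 5 lower, among them Grpel2 (-0.62, adjusted p = 0.00251), Chordc1 (-0.40, adjusted p = 0.0102) and Bag2 (-0.37, adjusted p = 0.0184). In Ctu1-deficient cells Bag5 alone was called (-0.43, adjusted p = 0.0361), where 8.25% of all genes were. With loss of Ctu1 in DMSO, Chordc1 (-0.32, adjusted p = 0.0379) fell and Hsbp1, which binds heat shock factor 1, rose (0.38, adjusted p = 0.0273), where 5.12% of all genes were called. With loss of Ctu1 in torin 1, 0 of 54 transcripts were called by edgeR, where 1.31% of all genes were. No partner gene was called in translational efficiency in any of the 4 comparisons, where 1.18%, 1.77%, 0% and 0.114% of all genes were.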

How the data were processed

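Ribosome footprints and poly(A) RNA were counted per gene in 46 libraries. The deposited values were raw counts per gene, which the authors made with cutadapt 3.4, UMI-tools 1.1.1 (footprints) and STAR 2.5.3a (mm10 per the labels, while the methods name a human build). Listed genes reached at least 100 footprint counts in some library of their table.

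Differences in counts came from the quasi-likelihood test of edgeR 4.0.16, run in R 4.3.3 (TMM scaling, mean count of 10 or more, Benjamini-Hochberg adjustment over all genes tested, threshold 0.05). Translational efficiency was the interaction of assay and group in replicates 1 to 3, without a term for the lysate. Alternatives were DESeq2 1.42.0, scaling by library totals, other filters, a replicate block, other replicate sets, RNA-seq counts divided by 2 and leaving out single libraries. The fitting code was tested on simulated counts with known changes for some of the comparisons. All 10 members were named throughout, and of each partner list at most the 3 called genes with the largest change. Members and lists were chosen with earlier results of these data known.

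Same-numbered libraries counted as paired where every correlation of their deviations from the group means was above 0.1. This held for footprints with torin 1 in control (0.44 to 0.64) and for loss of Ctu1 with torin 1 (0.32 to 0.55) and for all transcript comparisons (0.49 to 0.84), and not for the other footprint comparisons (lowest -0.03 and -0.10). Footprints and transcripts of a replicate came from the same lysate (0.16 to 0.46). Counts carry counting error only in part, since RNA-seq reads had no molecular identifiers.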

Additional observations from a re-analysis of the deposited data

Results flagged for a closer look

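The footprints of Hspa1a in control cells with DMSO reached 32.9 CPM in replicate 4, while the other 5 libraries of the group lay between 24.5 and 27.5 CPM. The footprints of Dnajb1 in Ctu1 iKO cells with DMSO reached 36.4 CPM in replicate 2, while the other 4 libraries lay between 27.5 and 29.6 CPM. These were 2 of 40 groups examined for a library that stands apart, and chance gives about 1 in 20.

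The effect of torin 1 on Hspa8 footprints differed between genotypes by -0.51 on the log2 scale in edgeR's test of the interaction (95% interval -0.75 to -0.27, adjusted p = 0.0376). All 6 torin 1 libraries of either genotype lay below all DMSO libraries of that genotype. Most fits that left out 1 library lost this call, as given above.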

How the results depend on the processing

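No result changed direction while past the threshold. Of 2174 values of single genes under an alternative, 2036 kept their side of the threshold, 96 lost it, 42 passed it newly and 0 reversed, and 150 values below the threshold changed sign. The cause of the changes below was not tested.

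Counts of members called moved as follows, with the share of all genes called under the same setting in parentheses. In footprints with torin 1 in control, 4 became 7 with the replicate block (20.5%), 6 with DESeq2 (10.8%), 1 with replicates 1 to 3 (1.40%), 2 with replicates 1 and 2 (1.36%) and 2 with replicates 3 to 6 (6.57%). With torin 1 in Ctu1 iKO, 4 became 2 with replicates 1 to 3 (1.81%) and 2 with replicates 1 and 2 (1.47%). For loss of Ctu1 with DMSO, 3 became 0 (0.0192%), 0 (0%) and, with replicates 3 to 6, 1 (1.77%). With torin 1, 3 became 7 with the replicate block (14.4%) and 0 with the first 3 (0.0101%) or 2 replicates (0%). For the footprint interaction, 1 became 2 with DESeq2 (1.09%) and with the replicate block (1.41%), and 0 with the first 3 (0.0203%) or 2 replicates (0.0102%). In transcripts with torin 1 in control, 1 became 4 with the replicate block (43.7%), 0 with all replicates (9.51%) and 2 with replicates 1 and 2 (15.7%). In Ctu1 iKO, 1 became 2 with DESeq2 (16.7%) and with the replicate block (35.1%), and 0 with all replicates (0%). For loss of Ctu1 with DMSO, 3 became 5 with DESeq2 (15.1%) and with the replicate block (28.0%). With torin 1, 0 became 5 with the replicate block (32.8%) and 1 with replicates 1 to 4 (8.69%). For efficiency, 2 became 1 with library totals for torin 1 in control (0.998%, without Hspa8), and 0 became 2 with DESeq2 (1.03%) and with all replicates (1.17%) for loss of Ctu1 with torin 1.

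Smaller moves in footprints came from DESeq2, which gave 4 for loss of Ctu1 with DMSO (6.73%, adding Hspa8) and 4 with torin 1 (8.49%, adding Hsph1), and from library totals, which gave 3 with torin 1 in control (9.43%, without Hspa1b), 3 in Ctu1 iKO (9.10%, without Hspe1) and 2 for loss of Ctu1 with DMSO (2.87%, without Hsph1).

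Where the numbers did not pair the footprint libraries, the replicate block gave 5 with torin 1 in Ctu1 iKO (adding Hsph1, 9.97% of genes), 4 for loss of Ctu1 with DMSO (adding Hspa8, 3.50%) and, for the interaction, Hspa8 -0.52 (adjusted p = 0.000564) and Hsp90ab1 -0.40 (adjusted p = 0.015).

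Leaving out 1 library gave 3 to 4 calls in footprints with torin 1 in Ctu1 iKO (5.35% to 9.35% of all genes), 1 to 3 for loss of Ctu1 with DMSO (1.39% to 2.74%), 3 with torin 1 (5.77%, only the library with the lowest total was left out) and 0 to 2 for the interaction (0.487% to 0.649%). In transcripts it gave 0 to 2 with torin 1 in control (4.28% to 12.8%), 0 to 1 in Ctu1 iKO (1.28% to 11.7%), 0 to 2 for loss of Ctu1 with DMSO (0% to 5.05%), 0 with torin 1 (0.0104% to 4.21%) and 0 for the interaction (0%). In efficiency it gave 0 to 2 with torin 1 in control (0.655% to 1.08%), 2 in Ctu1 iKO (1.09% to 1.70%) and 0 for loss of Ctu1 with DMSO (0%) and with torin 1 (0% to 0.0830%). Replicate subsets other than 1 to 3, the single footprint library, the RNA-seq counts divided by 2 and the summed Hspa1 counts were chosen after seeing the data. In replicates 1 to 3, Hspa1a had 0.478 to 1.03 RNA CPM, Hspa1b 3.31 to 8.98 and Hspb1 4.44 to 9.23, the members with the lowest transcript levels, which limits the precision of their efficiency.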

Other observations

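Hspa1a and Hspa1b, whose coding sequences are 99.6% identical, had nearly equal footprints and unequal transcripts. The log2 ratio of Hspa1b to Hspa1a lay between 0.06 and 0.30 in all 23 footprint libraries, and between 2.63 and 3.47 in the 12 RNA-seq libraries of replicates 1 to 3. The log2 ratio of footprint CPM to RNA CPM in control cells with DMSO was 5.02 ± 0.15 for Hspa1a and 2.01 ± 0.36 for Hspa1b (SD, n = 3). For footprints the study's methods name the gene counting mode of STAR, which takes reads that map to 1 place. How RNA-seq reads that fit both genes were counted is not given in the sources used here, and the part of counting in these ratios was not tested.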
